A study of Mus musculus with 8 samples.

Results

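The genes described here are 10 genes of the inflammasome and NOD pathways, Nlrp3, Aim2, Mefv, Pycard, Casp1, Casp4, Gsdmd, Nod1, Nod2 and Ripk2, which were chosen by name, with earlier results of these data known. They were 10 of the 55801 genes in the deposited table and 10 of the 12189 tested genes, so no member fell under the filter on low values. The cells were peritoneal macrophages of male C57BL/6 mice, which the study's methods give as 6 to 8 weeks old and injected with thioglycollate 72 h before the cells were flushed out. NC cells received the vehicle DMSO, LPS cells received vehicle and then lipopolysaccharide (LPS) at 100 ng/ml, C498 cells received the small molecule C498 at 15 µM, and C498+LPS cells received C498 and then LPS. C498 or vehicle was given 0.5 h before LPS and LPS was left for 4 h, with 2 samples per group and 8 in all. All groups therefore share the thioglycollate injection, which draws monocyte-derived cells into the peritoneum, and none is a resident, unelicited macrophage. The labels do not say whether the 2 samples of a group came from separate mice or cultures, so p-values measure only the spread between these samples, which may be technical.

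Inflammasomes are protein complexes that macrophages assemble in the cytosol when a sensor detects damage or infection. The sensor recruits the adaptor ASC, the product of Pycard, which brings in the protease caspase-1, the product of Casp1, and caspase-1 then matures interleukin-1 beta and interleukin-18 and cuts gasdermin D, whose fragment opens pores in the plasma membrane. Caspase-11, the product of mouse Casp4, binds LPS in the cytosol and cuts gasdermin D without the adaptor. The receptors NOD1 and NOD2 detect fragments of bacterial peptidoglycan and signal through the kinase RIPK2 to NFκB. In macrophages, LPS acting through the receptor TLR4 is known as the priming signal that raises the transcripts of several of these genes, while assembly of the complex is a later step that transcript levels do not show.

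Promoter sequences from RefSeq (assembly GRCm38.p6) covered 8 of the 10 genes with 11 annotated starts, and none was given for Gsdmd and Ripk2. A kappaB motif of the p65 type, GGNNTTTCC on either strand, lay in 5 of the 11 windows of 300 bases and in 5.82% of all 32851 windows in the table. The 5 windows belonged to 3 genes, and the windows of Casp4 overlap each other and hold the same matches. The 3 genes with the motif were Nlrp3, Casp4 and Nod2. They rose with LPS, but so did 9 of the 10 genes, so this does not set them apart. Mefv, Nod1 and Pycard, whose levels also changed, held no match to it, and neither did Aim2 and Casp1. The gamma-activated site TTCNNNGAA lay in 1 of the 11 windows, at the second start of Nod1, and in 8.30% of all windows. The core of the interferon-stimulated response element, GAAANNGAA, and the AP-1 motif TGANTCA lay in 0 of the 11 windows, against 8.56% and 7.81% of all windows. These matches describe letters in a window and do not show that a factor binds. Nlrp3, Casp4 and Nod2 are shown because they hold the kappaB motif, in capitals, and Mefv and Pycard because they were the genes called in a comparison of C498, with no capitals because no motif was found. Each run lies before a RefSeq start, reads 5′ to 3′ along the gene and has its first and last base on GRCm38.p6. They are Nlrp3 at chr11:59542436-59542685 and chr11:59541319-59541568, Casp4 at chr9:5308599-5308848 and Nod2 at chr8:88647097-88647314, all on the plus strand, and Mefv at chr16:3718125-3718374 and Pycard at chr7:127993868-127994117, both on the minus strand.
Nlrp3, first listed start: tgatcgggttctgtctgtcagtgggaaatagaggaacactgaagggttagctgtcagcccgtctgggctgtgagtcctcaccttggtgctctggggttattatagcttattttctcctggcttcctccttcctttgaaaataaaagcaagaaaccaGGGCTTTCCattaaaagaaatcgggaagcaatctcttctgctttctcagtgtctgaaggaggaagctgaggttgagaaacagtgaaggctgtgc
Nlrp3, second listed start: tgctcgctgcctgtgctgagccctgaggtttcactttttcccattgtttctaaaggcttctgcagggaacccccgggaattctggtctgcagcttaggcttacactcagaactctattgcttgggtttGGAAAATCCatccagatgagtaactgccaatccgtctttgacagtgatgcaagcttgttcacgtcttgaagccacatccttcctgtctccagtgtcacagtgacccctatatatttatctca
Casp4, first listed start: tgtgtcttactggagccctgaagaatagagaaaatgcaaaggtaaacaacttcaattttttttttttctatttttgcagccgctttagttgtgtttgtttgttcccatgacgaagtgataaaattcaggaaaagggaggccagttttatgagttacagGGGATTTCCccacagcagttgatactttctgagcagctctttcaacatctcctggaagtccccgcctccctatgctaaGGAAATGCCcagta
Nod2: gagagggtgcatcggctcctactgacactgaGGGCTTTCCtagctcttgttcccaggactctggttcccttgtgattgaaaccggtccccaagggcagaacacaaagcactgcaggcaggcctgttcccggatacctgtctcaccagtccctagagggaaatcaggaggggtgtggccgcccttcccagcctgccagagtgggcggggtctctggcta
Mefv: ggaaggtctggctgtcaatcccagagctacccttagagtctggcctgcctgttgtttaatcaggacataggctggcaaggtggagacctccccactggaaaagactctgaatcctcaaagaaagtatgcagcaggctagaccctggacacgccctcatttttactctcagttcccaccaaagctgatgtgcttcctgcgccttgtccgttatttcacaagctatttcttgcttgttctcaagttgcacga
Pycard: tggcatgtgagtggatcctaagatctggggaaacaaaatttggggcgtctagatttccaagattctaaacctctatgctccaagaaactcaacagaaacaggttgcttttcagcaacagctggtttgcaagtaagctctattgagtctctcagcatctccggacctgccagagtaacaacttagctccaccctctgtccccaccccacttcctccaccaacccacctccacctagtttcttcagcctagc

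In the 2 windows of Nlrp3 the motif began 94 bases before the first listed start, as GGGCTTTCC, and 122 bases before the other, as GGAAAATCC on the opposite strand. Casp4 had GGGATTTCC at 92 bases and GGAAATGCC at 14 bases before its start, and Nod2 had GGGCTTTCC at 219 bases before its start. The run printed for Nod2 stops at 218 bases, where the first exon annotated in GENCODE M21 begins. The last 21 bases of the run of Casp4, the match GGAAATGCC among them, lie in an annotated exon.

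Levels are given in TPM, a unit of transcript abundance that corrects for gene length and has 1 fixed total per sample, so levels of different genes can be compared. By mean TPM over the 8 samples, the order was Casp1 (133), Pycard (128), Gsdmd (112), Casp4 (111), Nlrp3 (75.0), Aim2 (40.7), Ripk2 (32.2), Nod1 (28.8), Mefv (16.2) and Nod2 (10.2). Casp1 lay above 91.5% of the tested genes and Nod2 above 42.6%. The deposited gene lengths behind these values ran from 1435 bases for Casp4 to 4719 bases for Nod2, while the exons annotated for Casp4 in GENCODE M21 span 3710 bases in all, so a level of Casp4 relative to another gene rests on the length the authors used. A gene was called where limma gave a change of at least 2-fold on the log2(TPM + 1) scale and an adjusted p of at most 0.05 by the Benjamini-Hochberg method over all tested genes. Adding 1 TPM draws the changes of low genes such as Nod2 towards 0, and the depth of the libraries is unknown because TPM keep no count of reads.

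All 10 macrophage markers (Adgre1, Cd68, Csf1r, Itgam and Lyz2 among them) passed the filter, and their summed level ran from 20325 to 20913 TPM in NC, 18189 to 18708 in LPS, 16137 to 16272 in C498 and 12553 to 14365 in C498+LPS. Lyz2 made up most of these sums, at 7831 to 15989 TPM. Cd14, also on the list, was at 235 and 252 TPM in NC, 1352 and 1250 TPM in LPS, 686 and 663 TPM in C498 and 1797 and 1794 TPM in C498+LPS, so it was higher in every sample given LPS or C498 than in NC. Of the 10 macrophage markers 1 was called higher and 1 lower in LPS vs NC, and 1 higher and 0 lower in C498 vs NC, with the same numbers in C498+LPS vs LPS. With no fold threshold 1 was higher and 3 lower in LPS vs NC. In C498+LPS vs LPS 2 were higher and 5 lower, with a median of -0.63. In C498 vs NC 1 was higher and 2 lower, with a median of -0.44. Of all tested genes 5.55% were called higher and 6.68% lower in LPS vs NC. These shares were 5.64% and 1.36% in C498 vs NC and 5.39% and 2.18% in C498+LPS vs LPS. With no fold threshold they were 9.84% and 19.8% in LPS vs NC. They were then 9.29% and 6.19% in C498 vs NC and 9.08% and 7.7% in C498+LPS vs LPS. Markers of fibroblasts and mesothelial cells, of which 5 of 6 passed the filter, summed to 129 to 171 TPM in NC, 147 to 174 in LPS, 551 to 660 in C498 and 516 to 760 in C498+LPS, and 4 of them were called higher in C498 vs NC and 3 in C498+LPS vs LPS. Markers of neutrophils (5 of 10 passed the filter) summed to 227 to 243 TPM in NC, 220 to 233 in LPS, 141 to 150 in C498 and 146 to 168 in C498+LPS. Of them 1 was called lower in each C498 comparison. S100a8 and Mmp8 made up most of these sums. Both, and Retnlg, were lower in the C498 samples than in the NC samples. Mmp9 was higher, at 24.2 and 24.6 TPM in C498 against 19.5 and 15.5 TPM in NC. S100a9, Ly6g, Cxcr2 and Ltf were under the filter, as was Ngp, at 0 in all samples. B cell markers (3 of 6 passed) summed to 18.0 to 25.1 TPM without C498 and 41.7 to 120 with it, most of it Ighm. Dendritic cell markers (3 of 6) summed to 48.1 to 63.4 TPM without C498 and 90.9 to 151 with it. Among these, Ccr7 was at 9.82 to 17.2 TPM without C498 and 30.7 to 112 with it. Itgax overlapped, at 37.4 to 48.4 TPM without C498 and 33.8 to 56.9 with it. Zbtb46 and Flt3 were also higher in every sample with C498, at no more than 3.41 TPM. Xcr1 and Clec9a stayed under 1 TPM. Sums of T cell markers (1 of 6 passed), mast cell markers (5 of 6) and eosinophil markers (0 of 6, Epx at 0) stayed at or under 22.9 TPM in every sample. The macrophage, fibroblast, neutrophil, B cell and dendritic cell sums differed between samples with and without C498, and their part in the changes of the 10 genes was not tested. In bulk samples fewer cells of a type and less RNA per cell cannot be told apart. The NC replicates differed most across the tested genes, by a median of 0.295 on the log2 scale, against 0.127 to 0.181 in the other groups.

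**Figure D1:**
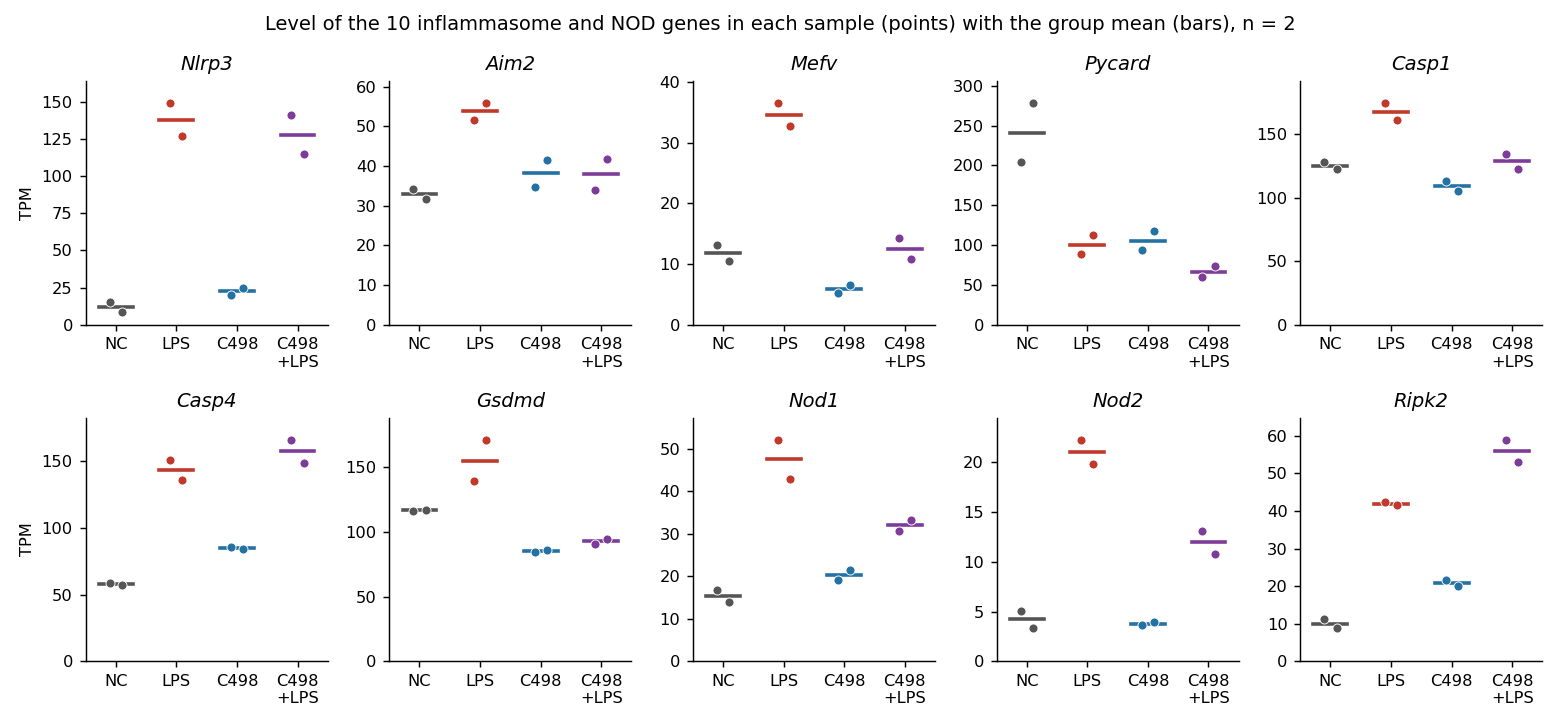
Level in TPM (y axis, from 0) of the 10 genes in each of the 8 samples (points) by group (x axis), with the mean of the 2 samples of a group as a bar. LPS samples lie above NC samples for 9 genes and below them for Pycard, and C498+LPS samples lie below LPS samples for 7 genes, above them for Ripk2 and among them for Nlrp3 and Casp4.

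LPS vs NC shows the response of vehicle-treated macrophages to LPS, the question being which of these genes were primed. Of the 10 genes, 6 were called higher (Nlrp3, Mefv, Casp4, Nod1, Nod2 and Ripk2) and 1 lower (Pycard), where 5.55% of all tested genes were called higher and 6.68% lower. With no fold threshold 9 were higher and 1 lower, against 9.84% and 19.8% of all genes. The median log2 change of the 10 was 1.39 and that of all tested genes was -0.17. Each of the 7 calls was kept in all 16 alternative analyses, and NC and LPS samples did not overlap for 9 of the 10 genes on the higher side and for Pycard on the lower side, as for 19.3% and 42.2% of all tested genes.

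Among the sensors, Nlrp3, the sensor of potassium loss and membrane damage (chromosome 11, 59541568 to 59566956 on GRCm38, plus strand), was at 15.0 and 8.71 TPM in NC and at 149 and 127 TPM in LPS. Both LPS samples were about an order of magnitude above both NC samples. The ratio of means was 11.6 and the log2 change 3.47 (SE 0.25, adjusted p = 0.00012), the largest rise among the 10 genes. Aim2, the sensor of cytosolic double-stranded DNA (chromosome 1, 173350879 to 173466040, plus strand), was at 34.2 and 31.6 TPM in NC and at 51.7 and 55.8 TPM in LPS, a ratio of 1.63. Its samples did not overlap and the change passed the test without reaching 2-fold (log2 change 0.69, SE 0.14, adjusted p = 0.0114), but it missed the threshold without LPS replicate 1 (adjusted p = 0.0543) and without LPS replicate 2 (0.0783). Aim2 overlaps Cadm3 on the other strand over 16817 bases, and Cadm3 had a mean of 0.824 TPM. Mefv, which encodes pyrin, a sensor of bacterial toxin activity (chromosome 16, 3707218 to 3718097, minus strand), was at 13.1 and 10.4 TPM in NC and at 36.5 and 32.7 TPM in LPS. It was higher in both LPS samples, with a ratio of 2.94 and a log2 change of 1.49 (SE 0.19, adjusted p = 0.00173).

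Pycard, the adaptor (chromosome 7, 127989708 to 127993867, minus strand), went the other way. It was at 204 and 278 TPM in NC, the highest level of any of the 10 genes in any sample, and at 89.2 and 112 TPM in LPS. Both LPS samples were at less than the lower NC sample, with a mean of 101 against 241 TPM and a log2 change of -1.24 (SE 0.20, adjusted p = 0.00404). Pycard shares 599 bases with Gm45205, an unconfirmed gene on the other strand, which was at a mean of 0.10 TPM. The call held relative to the shift of all genes, since centring each sample on its median gene, which took the all-gene median from -0.17 to -0.000539, left Pycard called lower.

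Of the proteases and the pore protein, Casp4 was called and Casp1 and Gsdmd were not. Casp1 (chromosome 9, 5298517 to 5307265, plus strand) was at 128 and 123 TPM in NC and at 174 and 161 TPM in LPS. Its log2 change was 0.42 (SE 0.095, adjusted p = 0.0156), which missed the threshold without LPS replicate 1 (0.0984), without LPS replicate 2 (0.0502) and in a fit of the 2 groups alone (0.0538). Casp4, which starts 1562 bases beyond the end of Casp1 on the same strand (chromosome 9, 5308828 to 5336783), was at 59.1 and 56.9 TPM in NC and at 151 and 136 TPM in LPS. It rose 2.47-fold (log2 change 1.29, SE 0.098, adjusted p = 0.00016), so of these neighbouring caspase genes the one whose product binds LPS was called and the other was not, although the difference between them was not tested. Gsdmd, which encodes the pore protein gasdermin D (chromosome 15, 75862327 to 75867408, plus strand), was at 116 and 117 TPM in NC and at 139 and 171 TPM in LPS. The log2 change was 0.40 (SE 0.11, adjusted p = 0.033), and it kept an adjusted p of at most 0.05 in 5 of 16 alternatives; without LPS replicate 2, the higher of the pair, it was 0.25 with an adjusted p of 0.16, and leaving out any other sample except LPS replicate 1 gave 0.0549 to 0.0716. No filter (0.06), quantile normalization (0.0639), no variance trend (0.0713) and the 2 groups alone (0.115) also took it over 0.05.

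All 3 genes of the NOD branch rose. Nod1, the receptor of a peptidoglycan fragment found mainly in Gram-negative bacteria (chromosome 6, 54923949 to 54972612, minus strand), was at 16.8 and 14.0 TPM in NC and at 52.1 and 43.0 TPM in LPS, a ratio of 3.09 (log2 change 1.56, SE 0.15, adjusted p = 0.00047). Nod2, the receptor of muramyl dipeptide (chromosome 8, 88647315 to 88688474, plus strand), was at 5.09 and 3.34 TPM in NC and at 22.3 and 19.8 TPM in LPS. It remained the lowest of the 10 genes in LPS, with a ratio of 4.99 and a log2 change of 2.10 (SE 0.21, adjusted p = 0.00053). Ripk2, the kinase downstream of both (chromosome 4, 16122733 to 16163647, minus strand), was at 11.2 and 8.95 TPM in NC and at 42.4 and 41.6 TPM in LPS. Its LPS samples differed by less than 1 TPM, and the ratio was 4.18 (log2 change 1.97, SE 0.14, adjusted p = 0.00011).

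**Figure D2:**
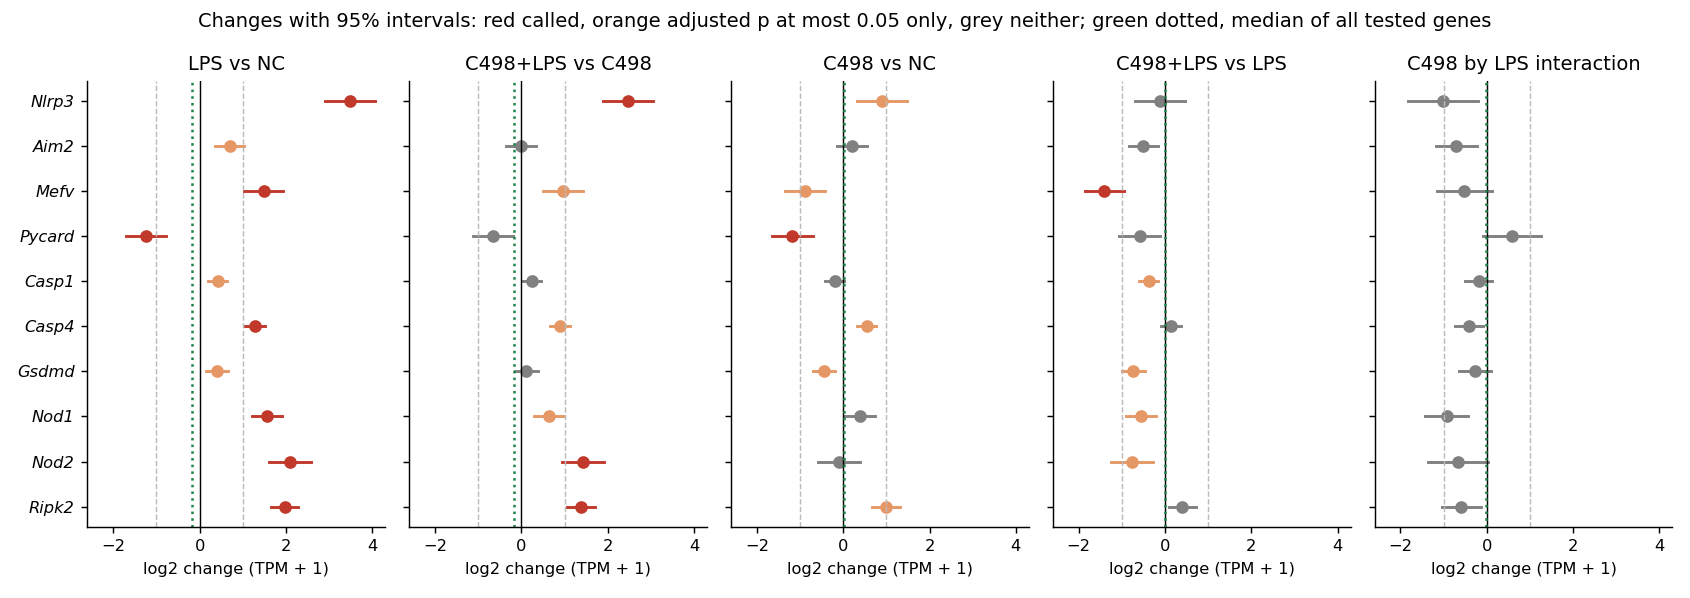
Log2 change on the TPM + 1 scale (x axis) of each of the 10 genes (rows) in the 4 comparisons and in the interaction, with 95% intervals; red marks calls, orange an adjusted p of at most 0.05 without a 2-fold change and grey neither. Dashed lines mark 2-fold and the green dotted line the median of all tested genes; 7 genes are red in LPS vs NC, 3 in C498+LPS vs C498, Pycard alone in C498 vs NC, Mefv alone in C498+LPS vs LPS and 0 in the interaction.

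C498+LPS vs LPS asks what the compound changed in cells that were given LPS. Mefv was the only one of the 10 genes called, in the lower direction, and 0 were called higher, where 2.18% of all tested genes were called lower and 5.39% higher. With no fold threshold 5 genes were lower (Mefv, Gsdmd, Casp1, Nod1 and Nod2) and 0 higher, against 7.7% and 9.08% of all genes. Samples did not overlap for 7 genes on the lower side and for Ripk2 on the higher side, against 30.9% and 31.9% of all tested genes. The median log2 change was -0.52 over the 10 genes and 0.0065 over all tested genes.

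Mefv was at 14.3 and 10.8 TPM in C498+LPS against 36.5 and 32.7 TPM in LPS. Both C498+LPS samples lay near the NC samples (13.1 and 10.4 TPM), and the level was 2.76 times lower than in LPS (log2 change -1.41, SE 0.19, adjusted p = 0.00402). The call was kept in all 16 alternatives, with adjusted p from 0.00168 to 0.0497. Gsdmd was at 90.8 and 94.1 TPM against 139 and 171 TPM in LPS, which also put it under its NC level of 116 and 117 TPM. This fall passed the test in all 16 alternatives without reaching 2-fold (log2 change -0.73, SE 0.11, adjusted p = 0.00602).

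For 3 further genes the fall was under 2-fold and its call depended on the analysis. Nod2 was at 13.1 and 10.8 TPM against 22.3 and 19.8 TPM in LPS (log2 change -0.77, SE 0.21, adjusted p = 0.0444, at most 0.05 in 8 of 16 alternatives). Nod1 was at 30.7 and 33.3 TPM against 52.1 and 43.0 TPM (log2 change -0.55, SE 0.15, adjusted p = 0.0463, at most 0.05 in 7 of 16). Casp1 was at 134 and 123 TPM against 174 and 161 TPM (log2 change -0.38, SE 0.095, adjusted p = 0.034, at most 0.05 in 6 of 16), which is close to its NC level of 128 and 123 TPM. For these 3 genes, leaving out any LPS, C498 or C498+LPS sample took the adjusted p over 0.05, with values up to 0.234 for Nod2, 0.246 for Nod1 and 0.178 for Casp1. Using no filter did so too (0.0953, 0.0847 and 0.0501), as did the 2 groups alone and no variance trend for Nod1 (0.0635 and 0.0677) and Casp1 (0.0588 and 0.0878), quantile normalization for Casp1 (0.0667) and a pseudocount of 0.1 for Nod2 (0.0549).

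The other 5 genes did not pass the test. With replicate number as a block in limma, Pycard, Aim2 and Ripk2 did (adjusted p = 0.00454, 0.0354 and 0.04975). Pycard was at 59.7 and 73.2 TPM against 89.2 and 112 TPM in LPS (log2 change -0.59, 95% interval -1.06 to -0.12, adjusted p = 0.0905), and Aim2 at 34.0 and 41.9 TPM against 51.7 and 55.8 TPM (log2 change -0.50, interval -0.84 to -0.16, adjusted p = 0.0566). Both had lower values in both C498+LPS samples. Nlrp3 was at 141 and 115 TPM against 149 and 127 TPM, so the samples overlapped (log2 change -0.11, interval -0.69 to 0.47, adjusted p = 0.814), and its sign turned without LPS replicate 1 or without C498+LPS replicate 2. Casp4 was at 166 and 149 TPM against 151 and 136 TPM, again with overlap (log2 change 0.13, interval -0.10 to 0.36, adjusted p = 0.42). Ripk2 was at 58.9 and 52.9 TPM against 42.4 and 41.6 TPM in LPS, higher in both samples (log2 change 0.40, interval 0.08 to 0.72, adjusted p = 0.0891, and 0.0176 with quantile normalization and 0.0325 to 0.0327 without an NC sample).

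C498 vs NC shows what the compound changed without LPS. Pycard was the only gene called, in the lower direction, where 1.36% of all tested genes were called lower, and 0 were called higher, against 5.64%. With no fold threshold 3 genes were higher (Nlrp3, Casp4 and Ripk2) and 3 lower (Pycard, Mefv and Gsdmd), against 9.29% and 6.19% of all genes. The median over the 10 genes was 0.052 and that of all genes 0.014, so the list had no common direction. Samples did not overlap for 5 genes on the higher side and 4 on the lower side, against 29.3% and 28.4% of all tested genes, and for Nod2 they overlapped.

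Pycard was at 94.0 and 117 TPM in C498 against 204 and 278 TPM in NC, a fall 2.28 times in the ratio of means. The C498 samples overlapped the LPS samples (89.2 and 112 TPM), and the log2 change was -1.17 (SE 0.20, adjusted p = 0.0107). The call was kept in 12 of 16 alternatives; it was lost without C498 replicate 1 (adjusted p = 0.0948), without C498 replicate 2 (0.0526), in a fit of the 2 groups alone (0.0608) and, by its fold, without NC replicate 2 (log2 change -0.95). Mefv was at 5.28 and 6.53 TPM in C498, its lowest level in any group, against 13.1 and 10.4 TPM in NC (log2 change -0.88, SE 0.19, adjusted p = 0.0251, at most 0.05 in 9 of 16 alternatives). Gsdmd was at 84.4 and 85.9 TPM against 116 and 117 TPM (log2 change -0.45, SE 0.11, adjusted p = 0.0378, at most 0.05 in 6 of 16). The adjusted p of Mefv was above 0.05 without NC replicate 1 or any C498 or LPS sample (0.0562 to 0.164), and that of Gsdmd without any NC, C498 or C498+LPS sample (0.0571 to 0.175). With no filter and with the 2 groups alone it was 0.059 and 0.118 for Mefv and 0.0672 and 0.0648 for Gsdmd, which also missed the threshold with centring (0.0532) and no variance trend (0.0789).

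Ripk2, Casp4 and Nlrp3 were higher with C498 alone. Ripk2 was at 21.7 and 20.2 TPM against 11.2 and 8.95 TPM in NC, a ratio of 2.08 and, after 1 TPM was added, a log2 change of 0.99 that fell just short of 2-fold (SE 0.14, adjusted p = 0.00486, at most 0.05 in 14 of 16 alternatives). It was called with 3 alternatives, and the adjusted p was 0.0574 without C498 replicate 1 and 0.07 in a fit of the 2 groups alone. Casp4 was at 85.7 and 83.8 TPM against 59.1 and 56.9 TPM (log2 change 0.54, SE 0.098, adjusted p = 0.0136), which became 0.095 without C498 replicate 1, 0.0817 without C498 replicate 2 and 0.0567 in a fit of the 2 groups alone. Nlrp3 was at 19.9 and 24.9 TPM against 15.0 and 8.71 TPM (log2 change 0.90, SE 0.25, adjusted p = 0.0492). The NC samples of Nlrp3 differed more from each other than the C498 samples did, and its adjusted p was at most 0.05 in 6 of 16 alternatives; without NC replicate 2 the change was 0.54 with an adjusted p of 0.14, and leaving out any LPS, C498 or C498+LPS sample gave 0.084 to 0.239. It was also lost with no filter (0.118), no variance trend (0.0744) and the 2 groups alone (0.178).

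The remaining genes did not pass in this comparison. Casp1 was at 113 and 105 TPM against 128 and 123 TPM (log2 change -0.20, interval -0.42 to 0.024, adjusted p = 0.197). Aim2 was at 34.7 and 41.6 TPM against 34.2 and 31.6 TPM (log2 change 0.20, interval -0.13 to 0.54, adjusted p = 0.369), and Nod1 was at 19.1 and 21.5 TPM against 16.8 and 14.0 TPM (log2 change 0.38, interval 0.026 to 0.73, adjusted p = 0.133). Nod2 was at 3.65 and 3.94 TPM, between its NC samples of 5.09 and 3.34 TPM (log2 change -0.10, interval -0.59 to 0.39, adjusted p = 0.773), and its sign turned without NC replicate 1.

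C498+LPS vs C498 gives the response to LPS in cells that had received the compound. Nlrp3, Nod2 and Ripk2 were called higher and 0 genes lower, where 2.52% of all tested genes were called higher and 3.13% lower. With no fold threshold 6 were higher and 0 lower, against 4.51% and 11.7% of all genes, and the medians were 0.76 over the 10 genes and -0.18 over all genes. Nlrp3 went from 19.9 and 24.9 TPM to 141 and 115 TPM, a ratio of 5.70 (log2 change 2.46, SE 0.25, adjusted p = 0.00127). Ripk2 went from 21.7 and 20.2 TPM to 58.9 and 52.9 TPM (log2 change 1.38, SE 0.14, adjusted p = 0.00119), and both calls held in all 16 alternatives. Nod2 went from 3.65 and 3.94 TPM to 13.1 and 10.8 TPM (log2 change 1.43, SE 0.21, adjusted p = 0.00561), a call that was lost without C498 replicate 1 (adjusted p = 0.0622) and without C498 replicate 2 (0.0543).

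Casp4, Mefv and Nod1 rose with LPS in the presence of C498 without reaching 2-fold on the log2(TPM + 1) scale. Casp4 had a log2 change of 0.88 (SE 0.098, adjusted p = 0.00193) that passed in all 16 alternatives. Mefv had a change of 0.97 (SE 0.19, adjusted p = 0.0182, and 1.07 with a pseudocount of 0.1) that passed in 12 of 16, with a ratio of mean TPM of 2.12, and Nod1 one of 0.63 (SE 0.15, adjusted p = 0.0312) that passed in 9 of 16. Mefv missed the threshold in a fit of the 2 groups alone (adjusted p = 0.0509) and without either C498 sample or C498+LPS replicate 1 (0.0778 to 0.13) and Nod1 with no filter (0.0638) and without any LPS, C498 or C498+LPS sample (0.0524 to 0.176). Casp1 (log2 change 0.24, interval 0.013 to 0.46, adjusted p = 0.137) and Gsdmd (0.12, interval -0.14 to 0.38, adjusted p = 0.519) did not pass. With centring the change of Casp1 was 0.45 and passed the adjusted p (0.0458). Pycard was at 59.7 and 73.2 TPM in C498+LPS, the lowest of the 4 groups, against 94.0 and 117 TPM in C498. Its log2 change was -0.66 (interval -1.13 to -0.19, adjusted p = 0.0653, and 0.00334 with replicate number as a block). Aim2 had a change of -0.010 (interval -0.35 to 0.33, adjusted p = 0.976) and C498 and C498+LPS samples that overlapped. Centring each sample on its median gene, which took the all-gene median in this comparison from -0.18 to 0.038, gave 5 calls in place of 3, Mefv and Casp4 being added, and turned the sign of Aim2 to 0.20.

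The interaction term tests whether the LPS response differed with and without C498. For none of the 10 genes did it pass the adjusted threshold in limma, while 0.0738% of all tested genes were called higher and 0.394% lower; unadjusted p was under 0.05 for 5 of the 10 genes and for 1351 (11.1%) of all tested genes. The estimate was negative for 9 of 10 genes, with a median of -0.56 against -0.026 over all genes. A negative estimate means that the log2 change with LPS was lower with C498 than without it. The estimates of the 10 genes come from the same 8 libraries and are not independent of each other. The largest were -1.01 for Nlrp3 (SE 0.35, adjusted p = 0.354), -0.93 for Nod1 (SE 0.21, adjusted p = 0.156), -0.70 for Aim2 (SE 0.20, adjusted p = 0.282), -0.67 for Nod2 (SE 0.29, adjusted p = 0.466) and -0.59 for Ripk2 (SE 0.19, adjusted p = 0.332). Pycard, whose fall with LPS was -1.24 without and -0.66 with C498, was the one gene with a positive estimate (0.59, SE 0.28, adjusted p = 0.51). In the ratio of means, Nlrp3 and Ripk2 with C498 were at 1.89 and 2.08 times their levels without it before LPS, and at 0.928 and 1.33 times after LPS.

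**Figure D3:**
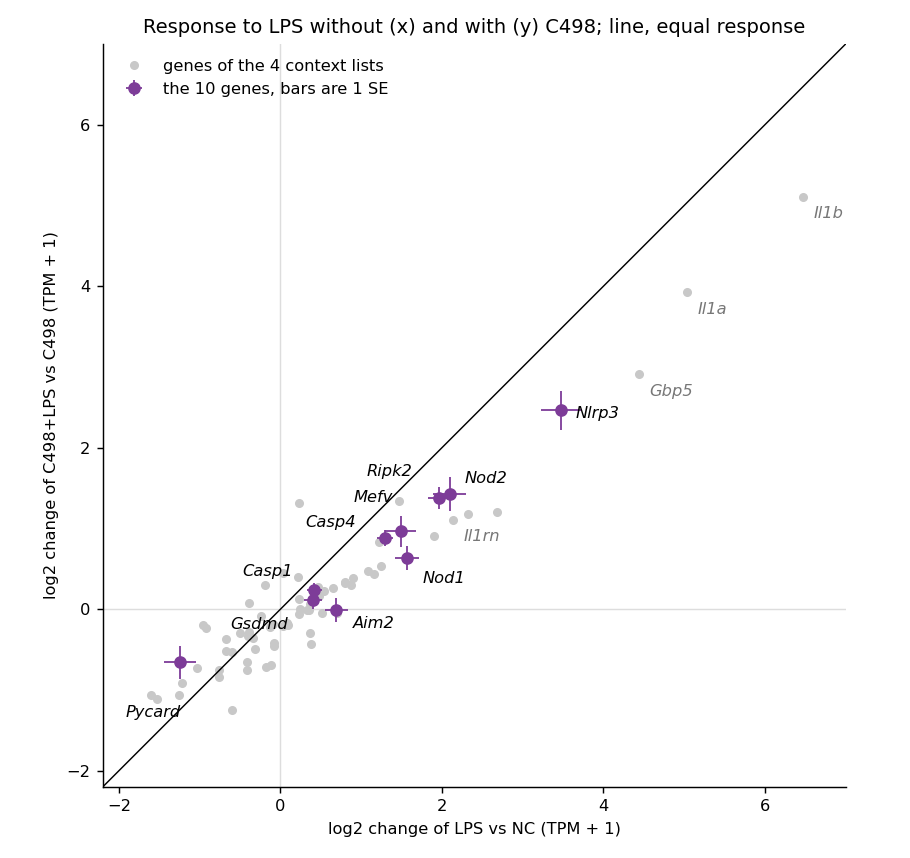
Log2 change with LPS without C498 (x axis, LPS vs NC) and with C498 (y axis, C498+LPS vs C498), both on the TPM + 1 scale; purple points with bars of 1 SE are the 10 genes, grey points are tested genes of the 4 context lists, and the diagonal marks equal responses. Of the 10 genes, 9 lie below the line, such as Nlrp3 at 3.47 and 2.46, and Pycard lies above it at -1.24 and -0.66; no interaction of these 10 passed the test.

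The order of the 4 group means differed between genes, and neighbours in that order often overlapped. For Mefv it was LPS (34.6 ± 2.67 TPM, SD, n = 2), C498+LPS (12.5 ± 2.52), NC (11.8 ± 1.87) and C498 (5.91 ± 0.884), with overlap between C498+LPS and NC alone. For Pycard it was NC (241 ± 52.2), C498 (106 ± 16.4), LPS (101 ± 16.3) and C498+LPS (66.4 ± 9.53), with overlap between C498 and LPS alone. Casp4 and Ripk2 shared the order C498+LPS, LPS, C498 and NC, with overlap of the first pair for Casp4 and of none for Ripk2. Nlrp3 and Nod1 shared the order LPS, C498+LPS, C498 and NC, with overlap of the first pair for Nlrp3 and of none for Nod1. Casp1 and Nod2 shared the order of Mefv, with overlap of C498+LPS and NC for Casp1 and of NC and C498 for Nod2. For Gsdmd the order was LPS, NC, C498+LPS and C498 with no overlap of neighbours, and for Aim2 it was LPS, C498, C498+LPS and NC, where only LPS stood clear of its neighbour.

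Over the 8 samples, Pearson's r of the log2 levels describes which of the 10 genes had like patterns; the points share 4 groups, so r mostly reflects group means. It was highest for Casp4 with Ripk2 (0.992), Casp4 with Nlrp3 (0.980), Casp1 with Mefv (0.975), Nlrp3 with Ripk2 (0.963) and Nod1 with Nod2 (0.955). It was lowest for Pycard with Ripk2 (-0.926) and with Casp4 (-0.890). Among all other tested genes, the 3 most like each member included Gbp5 for Nlrp3 (0.996, after Tra2a at 0.997), Sp110 for Mefv (0.994, after Mfsd7a at 0.996), Icam1 for Casp4 (0.997, after Stip1 at 0.998 and Ccnd2 at 0.997) and Gbp3 for Nod1 (0.989, after Itgb8 at 0.993). Those of Ripk2 were Ccrl2 (0.997), Pdpn (0.996) and Cxcl1 (0.995), and those of Nod2 were Ifit2 (0.998), Gm16867 (0.996) and Lcp2 (0.995). Pycard was most like Uap1l1 (0.995), Aprt (0.993) and Calm3 (0.990), Casp1 like P2ry14 (0.994), Fbxo7 (0.994) and Scimp (0.991), Gsdmd like Gm14221 (0.976), Pilrb2 (0.975) and Pilra (0.970), and Aim2 like Rab22a (0.967), Mmp2 (0.937) and Rtn2 (0.932). The third gene of the others was Mapk11 for Nlrp3 (0.996), Rbm43 for Mefv (0.992) and Pcgf5 for Nod1 (0.989).

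The other genes of these pathways were taken from 4 lists. Of the 13 substrates and outputs of inflammasomes, all tested, 5 were called higher and 0 lower in LPS vs NC (5.55% and 6.68% of all genes). Il1b, the cytokine that caspase-1 matures, was at 19.1 and 15.9 TPM in NC, 1626 and 1640 TPM in LPS, 37.3 and 35.1 TPM in C498, and 1443 and 1137 TPM in C498+LPS. It was called in LPS vs NC (log2 change 6.47, adjusted p = 5.43e-07), C498 vs NC (1.01, adjusted p = 0.00453) and C498+LPS vs C498 (5.11, adjusted p = 5.74e-06), and did not pass in C498+LPS vs LPS (-0.35, adjusted p = 0.128). Its C498 vs NC call was lost in a fit of the 2 groups alone (adjusted p = 0.0517), without C498 replicate 1 (0.0564) and, by its fold, without NC replicate 2 or with centring (changes of 0.89). Il18, the other cytokine matured by caspase-1, was at 6.75 and 8.17 TPM in NC, 18.8 and 26.4 TPM in LPS, 6.27 and 3.31 TPM in C498, and 14.2 and 12.2 TPM in C498+LPS. It was called with LPS (1.47, adjusted p = 0.00827, and 0.069 without LPS replicate 2), and the values of C498+LPS below those of LPS did not pass (-0.72, adjusted p = 0.133). Il1a (5.03) and Il1rn, which encodes the natural antagonist of the interleukin-1 receptor (2.13), were also called higher with LPS. In C498+LPS vs LPS 0 of the 13 genes were called, where 2.18% of all tested genes were called lower and 5.39% higher. With no fold threshold 2 of the 13 were lower and 0 higher, against 7.7% and 9.08% of all genes. In C498 vs NC Il1b and Il1rn (1.07) were called higher and 0 genes lower, against 5.64% and 1.36% of all genes. Il1rn fell short of 2-fold with centring (0.95), without NC replicate 2 (0.96) and without C498 replicate 1 (0.98).

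Of the 24 listed regulators of inflammasomes, 21 were tested, and in LPS vs NC 6 were called higher and 2 lower, against 5.55% and 6.68% of all tested genes. Those higher were the guanylate-binding protein genes Gbp5 (log2 change 4.43), Gbp3 (2.33) and Gbp2 (1.90), whose products act on bacterial membranes and LPS, the ubiquitin-editing inhibitor Tnfaip3 (2.69), the transcription factor Irf1 (1.58) and Trim30a (1.22). Those lower were Pstpip1, whose product binds pyrin (-1.53), and the ATP receptor P2rx7 (-1.03). In C498+LPS vs LPS, Txnip, whose product binds thioredoxin (-1.36), and the potassium channel Kcnn4 (30.7 and 29.1 TPM, against 62.5 and 59.3 TPM in LPS) were lower and the transcription factor Irf8 (1.43) was higher, 2 and 1 of the 21 against 2.18% and 5.39% of all genes. Txnip went from 68.0 and 67.7 TPM in LPS to 27.3 and 24.3 TPM in C498+LPS, and Irf8 from 118 and 93.0 TPM to 299 and 270 TPM. Kcnn4 kept an adjusted p under the threshold but fell short of 2-fold with quantile normalization (-0.90) and without LPS replicate 1 or C498+LPS replicate 2 (changes of -0.97). P2rx7 in LPS vs NC fell short of it with centring (-0.86), quantile normalization (-0.88), without NC replicate 1 (-0.77) and without LPS replicate 2 (-0.99), and had an adjusted p of 0.0532 in a fit of the 2 groups alone. In C498 vs NC, Txnip (-1.03) and Kcnn4 (-1.49) were again lower, and Tnfaip3 (1.83), Irf1 (1.21) and Gbp5 (1.03) were higher, 2 and 3 of the 21 against 1.36% and 5.64% of all genes, Gbp5 not with centring (change 0.91), without NC replicate 2 (0.74), without either C498 sample (adjusted p = 0.11 and 0.113), with no filter (0.0551) or with the 2 groups alone (0.0898). Nek7, the kinase that NLRP3 needs for assembly, was at 21.6 and 14.7 TPM in NC, 17.5 and 15.0 TPM in LPS, 20.98 and 17.9 TPM in C498 and 17.1 and 15.8 TPM in C498+LPS, so all other samples lay between its NC samples, and it was not called.

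Among the 24 NOD signaling partners, all tested, 2 were called higher in LPS vs NC and 1 lower, in a comparison where 5.55% and 6.68% of all tested genes were. The peptide transporter Slc15a3 (1.09) and Rnf31, a part of the linear ubiquitin ligase (1.16), were higher, and the adaptor Card9 (-1.25) was lower. In C498+LPS vs LPS, Ikbkg, the regulatory subunit of the IκB kinase, was at 16.5 and 13.02 TPM against 38.04 and 29.7 TPM (-1.14, adjusted p = 0.0109), a call lost without LPS replicate 1 (adjusted p = 0.0908) and without C498+LPS replicate 2 (0.0915). The transporter Slc15a2 was higher with C498 in LPS-treated cells (1.35) and without LPS (1.46), at levels of 8.49 to 11.9 TPM against 1.87 to 4.37 TPM, but both calls were lost without either LPS, C498 or C498+LPS sample (adjusted p from 0.0509 to 0.17) and with no filter (0.0792 and 0.0678), and the second also without NC replicate 2 (0.0563) and with the 2 groups alone (0.122). Rnf31 missed the fold without LPS replicate 1 (0.98). Xiap, a ubiquitin ligase that acts on RIPK2, was at 21.1 and 11.1 TPM in NC and 16.2 to 21.7 TPM in the other groups, with no call; its LPS vs NC change of 0.35 (adjusted p = 0.37) became 0.78 when NC replicate 1 was left out (0.0173) and -0.084 when NC replicate 2 was.

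Of 16 other sensors 10 were tested and Nlrp6 was at 0 in all samples. Nlrc5 (1.24) was called higher with LPS and Nlrx1 (-1.61) and Nlrc3 (-1.22) lower, against 5.55% and 6.68% of all genes. In C498+LPS vs LPS only Tlr4, the LPS receptor, was called, at 7.10 and 4.53 TPM against 14.1 and 12.6 TPM (-1.10, adjusted p = 0.0446); leaving out any LPS, C498 or C498+LPS sample took its adjusted p to between 0.0662 and 0.251, and no filter (0.112), no variance trend (0.0618) and the 2 groups alone (0.0551) also ended the call. Of all tested genes 2.18% were called lower and 5.39% higher in C498+LPS vs LPS. In C498 vs NC 0 of these sensors were called, against 1.36% lower and 5.64% higher of all genes. In LPS vs NC Nlrc5 missed the fold without NC replicate 2 (0.97) and Nlrc3 with quantile normalization (-0.95). Nlrc4 was at 4.54 and 2.42 TPM in NC, 5.36 and 3.91 TPM in LPS, 3.36 and 2.69 TPM in C498 and 2.97 and 1.69 TPM in C498+LPS, with a change of -0.77 in C498+LPS vs LPS that did not pass (adjusted p = 0.147, and 0.0403 with quantile normalization). Nlrp1b was under the filter, at 1.15 and 0.57 TPM in NC, 0.04 and 0.02 TPM in LPS, 0.49 and 0.30 TPM in C498 and 0.10 and 0.10 TPM in C498+LPS. It was lower in all samples given LPS or C498 than in NC, with no test, and reads of Nlrp1 and Naip paralogs can be shared between near-identical copies.

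**Figure D4:**
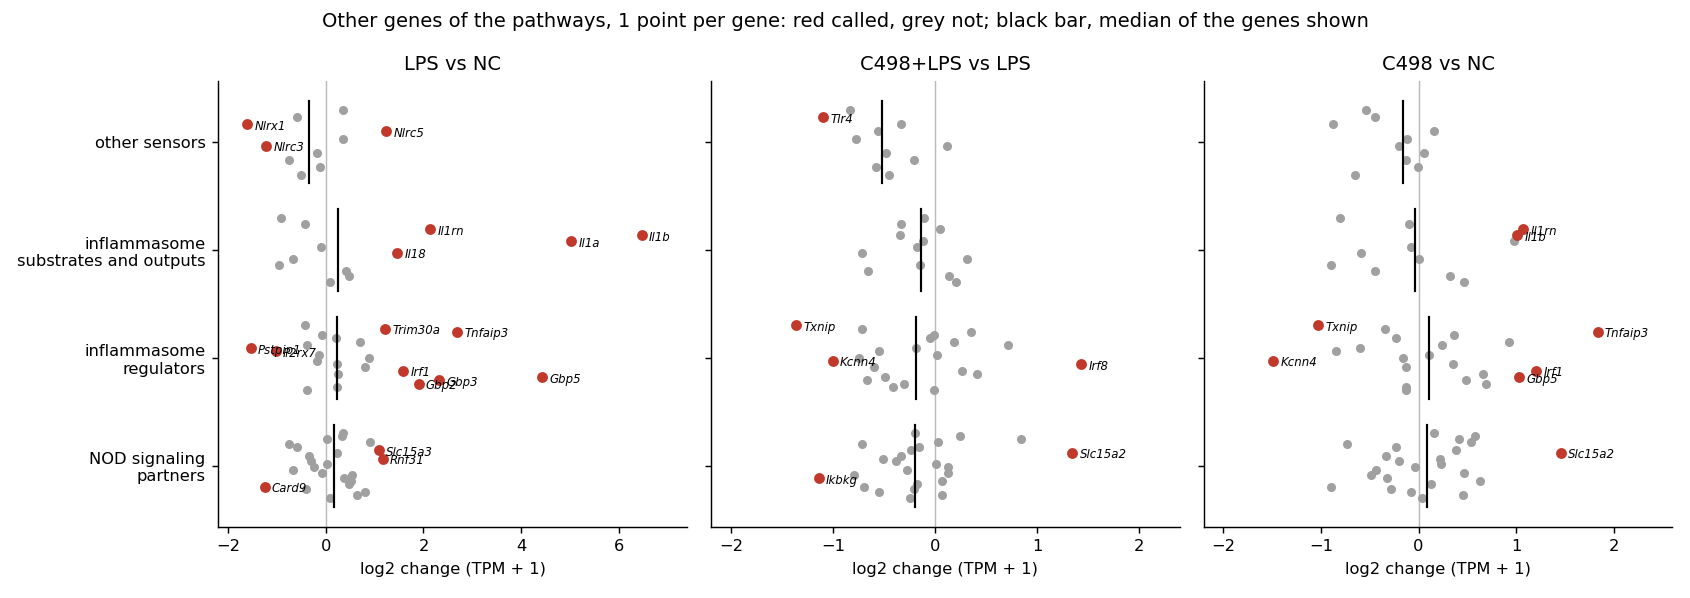
Log2 change on the TPM + 1 scale (x axis) of tested genes of the 4 lists (rows) in LPS vs NC, C498+LPS vs LPS and C498 vs NC; red and named points were called, grey points were not, and black bars are medians of the genes shown. In LPS vs NC the substrates and outputs reach 6.47 (Il1b), and in C498+LPS vs LPS the called genes are Txnip, Kcnn4, Tlr4 and Ikbkg on the lower side and Irf8 and Slc15a2 on the higher side.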

How the data were processed

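Total RNA of 8 samples, 2 per group, was sequenced on an Illumina NovaSeq. Per the labels and the study's methods, the authors used fastp for read filtering, HISAT2 for alignment, StringTie for assembly and RSEM for quantification, and they deposited TPM per gene and sample together with each gene's length, group means and annotation. Tool versions, genome build and annotation are not given in the sources used here. The authors tested counts with DESeq2, which was not repeated. The deposited TPM are not counts and were tested here with limma 3.58.1 (R 4.3.3) on log2(TPM + 1), for the 12189 of 55801 genes averaging 1 TPM or more, fitting the 4 group means to all 8 samples with variances moderated by a trend. Calls needed a 2-fold change and a Benjamini-Hochberg adjusted p, computed per comparison, no higher than 0.05; tests are two-sided. Every sample has the same total, so depth is unknown and the spread between 2 samples is the only error. The deposited group means were not used. Gene coordinates were taken from GENCODE M21 (GRCm38), in which 97.4% of the tested identifiers were found.

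The 10 genes and all lists and motifs were chosen with earlier results of these data known. Named are the 10 genes; of the 4 lists, the genes called in LPS vs NC, C498+LPS vs LPS or C498 vs NC, and Nlrp1b, Nlrc4, Il1b, Il18, Nek7 and Xiap; and the 3 genes most like each member. Alternatives were a pseudocount of 0.1, no filter, a mean TPM of at least 5, centring, quantile normalization, only the groups compared, no variance trend, a replicate block, no fold threshold, and leaving out each sample. Among the genes this rule names, 1 is not reported here. The steps were tested on simulated data. Figures were drawn with matplotlib 3.10.9.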

Additional observations from a re-analysis of the deposited data

Results flagged for a closer look

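For Aim2 and Nod1 both C498 samples were higher than both NC samples, and both C498+LPS samples were lower than both LPS samples. Such non-overlap was seen for 29.3% and 30.9% of all tested genes. The rise with C498 alone did not pass in limma for Aim2 (log2 change 0.20, adjusted p = 0.369) or Nod1 (0.38, adjusted p = 0.133). The Aim2 change fell to 0.082 with centring and to 0.077 without C498 replicate 2. In C498+LPS vs LPS the change was -0.50 (adjusted p = 0.0566) for Aim2 and -0.55 (adjusted p = 0.0463) for Nod1. The interaction of C498 and LPS was -0.70 for Aim2 (adjusted p = 0.282) and -0.93 for Nod1 (adjusted p = 0.156), so in limma the difference did not pass the threshold for either gene, and it did not pass in any of the 15 alternatives run for it (adjusted p from 0.132 to 0.612 and from 0.0797 to 0.533).

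For Il1b and Il1rn, which belong to the list of substrates and outputs, the rise with LPS was smaller in cells given C498, and the interaction passed the test. It was -1.36 for Il1b (adjusted p = 0.0412), whose mean went from 17.5 to 1633 TPM without C498 and from 36.2 to 1290 TPM with it. It was -1.03 for Il1rn (adjusted p = 0.0493), whose mean went from 81.6 to 361 TPM without C498 and from 173 to 373 TPM with it. Both genes were called higher in C498 vs NC, calls that centring ended by the fold (changes of 0.89 and 0.95), and neither in C498+LPS vs LPS. The adjusted p rose above 0.05 with no filter, to 0.108 for Il1b and 0.107 for Il1rn, with no variance trend, to 0.116 and 0.137, with centring for Il1rn, to 0.053, and without any sample other than NC replicate 1, to between 0.0591 and 0.257 for Il1b and between 0.0816 and 0.264 for Il1rn, whose interaction also fell short of 2-fold with quantile normalization (-0.98).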

How the results depend on the processing

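Of 790 values of the 10 genes under the alternatives, 682 kept their direction and their side of an adjusted p of 0.05, 91 lost the threshold, 10 gained it and 7 changed sign; of 889 values of the other named genes the numbers were 800, 78, 3 and 8. The number of members called in LPS vs NC was 7 in every alternative with a fold threshold, and that of the interaction was 0 in all. In C498 vs NC it was 1, and 2 with a pseudocount of 0.1, centring or quantile normalization, 0 with only the groups compared, 6 with no fold threshold and 0 to 3 when a sample was left out. In C498+LPS vs C498 it was 3, and 4 with a pseudocount of 0.1 or quantile normalization, 5 with centring, 6 with no fold threshold and 2 to 4 when a sample was left out. In C498+LPS vs LPS it was 1, and 5 with no fold threshold. Signs turned with centring for Aim2 in C498+LPS vs C498 (0.20) and Nek7 in LPS vs NC (0.035) and C498+LPS vs LPS (-0.055), and with quantile normalization for the same 3 (0.11, 0.0083 and -0.023). When a sample was left out, Nlrp3 in C498+LPS vs LPS ranged from -0.26 to 0.039, Aim2 in C498+LPS vs C498 from -0.16 to 0.14, Nod2 in C498 vs NC from -0.35 to 0.14, Nek7 from -0.40 to 0.13 in LPS vs NC and from -0.086 to 0.13 in C498+LPS vs LPS, and Xiap in LPS vs NC from -0.084 to 0.78. None of these values passed the test with all samples, and the cause of the changes was not tested.

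The labels give all groups replicate numbers 1 and 2 but name no shared mouse or day, so the samples were not treated as paired. Deviations of same-numbered samples correlated at 0.0397 to 0.168 between groups over all tested genes. A correlation over all genes cannot decide whether single genes share a replicate effect, which was not tested. Pycard was higher in replicate 2 than in replicate 1 in every group. With the replicate block, the number of members called stayed at 7 in LPS vs NC and was the same in the other comparisons. Pycard (-0.59, adjusted p = 0.00454), Aim2 (-0.50, 0.0354), Ripk2 (0.40, 0.04975) and Nlrc4 (-0.77, 0.0463) passed the adjusted p in C498+LPS vs LPS, as did Pycard in C498+LPS vs C498 (-0.66, 0.00334). The depth of the libraries is unknown, so what it limits could not be measured.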
